A study of Mus musculus with 15 samples.

Results

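The genes described are 10 genes of glucose uptake and of the lactate shuttle, chosen by name from the 29659 genes listed in each library: the glucose transporters Slc2a1 and Slc2a3, the hexokinases Hk1 and Hk2, the glycolytic regulator Pfkfb3, the pyruvate kinase Pkm, the lactate dehydrogenases Ldha and Ldhb, and the monocarboxylate transporters Slc16a1 and Slc16a7. Each was read gene by gene in bulk RNA-seq of thalamic tissue from mice aged 4.5 months, in 15 libraries. By the study's description all 4 groups carried human APOE4 as a knock-in on both alleles, so every comparison was meant to be made on that background, and 1 library, described below, went against it. EL mice (n = 3) had an intact Lilrb4a gene, which encodes an inhibitory receptor of microglia and other myeloid cells, and ELKO mice (n = 3) lacked it (Lilrb4a-/-). 5EL mice (n = 5) carried in addition the 5xFAD transgenes, which are expressed in neurons from the Thy1 promoter and drive early amyloid deposition, with Lilrb4a intact, and 5ELKO mice (n = 4) carried 5xFAD and lacked Lilrb4a. The deletion was present in the whole animal and not in microglia alone, the labels give no sex, and the study states for its experiments in general that those not split by sex used males. The question was whether loss of Lilrb4a on the APOE4 background changed gene expression in the thalamus.

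Brain cells take up glucose from blood through GLUT1, the product of Slc2a1, in the endothelium of capillaries and in astrocytes, while neurons rely on GLUT3, the product of Slc2a3. Hexokinase traps the sugar in the cell, Pfkfb3 makes the activator of phosphofructokinase, and Pkm makes pyruvate at the end of glycolysis. In the lactate shuttle, glial cells turn pyruvate into lactate and export it, and neurons import it and turn it back into pyruvate. The LDHA subunit favours the making of lactate and LDHB its use, MCT1 (Slc16a1) serves endothelium, oligodendrocytes and astrocytes, and MCT2 (Slc16a7) serves neurons. In bulk tissue, a change in the number of cells of a type and a change in RNA per cell cannot be told apart.

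All values are on the deposited log2 scale, whose transform is not named, and a fold is given here as 2 to the power of a difference. For Lilrb4a, a gene of low value, the SD was 0.0019 in 5ELKO, where the gene is deleted, and 0.112 in 5EL. Differences of genes of low value may be compressed on this scale and are not read as folds. Lilrb4a was at 2.34 to 2.42 on the log2 scale in EL, at 2.40 to 2.66 in 5EL and at most at 2.33 in the 7 libraries labelled as lacking it. Mouse Apoe, which the knock-in replaces, was at 5.92 to 6.37 in 14 libraries and at 10.9 in the library labelled ELKO replicate 1. That level goes against replacement of both Apoe alleles, so the genotype of this library is in doubt. Some of the differences that use it are also given without it. The correlations over 15 libraries and the fit of ELKO against EL with a replicate block include it. Genes of the thalamus stood at a list mean of at least 12.3 in every library, and of the markers of neurons, astrocytes, oligodendrocytes, microglia and endothelium none had a median below 10 on the linear scale. Genes of the choroid plexus, a tissue next to the thalamus, had a list mean of 8.56 in 5EL replicate 1 and 8.99 in ELKO replicate 2, against at most 6.52 elsewhere. A list of 5 hepatocyte genes had means of 5.21 to 5.77 in 5ELKO and 5.98 in EL replicate 1, against 4.63 to 4.99 in the other 10 libraries. A list of 5 erythroid genes, of which Hba-a2 and Hbb-bt had medians below 10 on the linear scale, had a mean of 5.39 in EL replicate 3 and of 3.93 to 4.65 elsewhere. The part of these genes in the results was not tested.

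The promoters of 3 members are shown because Ldha and Ldhb are the paired subunits of one enzyme and Slc16a1 is the lactate transporter with the lowest nominal p below. The windows hold the 250 bases before the RefSeq start in GRCm38.p6, written along the strand of the gene, for Ldha at chr7:46845554-46845803 (plus), for Ldhb at chr6:142507958-142508207 (minus) and for Slc16a1 at chr3:104638414-104638663 (plus). Capitals mark ACGTG or its reverse complement CACGT, the core that the hypoxia-inducible factors recognise, and where both overlap as CACGTG, the E-box of MYC and USF factors, the run of capitals counts as 2 matches.
Ldha: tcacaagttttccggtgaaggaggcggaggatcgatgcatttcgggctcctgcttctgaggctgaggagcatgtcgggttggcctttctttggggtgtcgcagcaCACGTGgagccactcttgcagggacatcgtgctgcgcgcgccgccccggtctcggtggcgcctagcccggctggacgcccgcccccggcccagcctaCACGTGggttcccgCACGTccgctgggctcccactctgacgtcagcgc
Ldhb: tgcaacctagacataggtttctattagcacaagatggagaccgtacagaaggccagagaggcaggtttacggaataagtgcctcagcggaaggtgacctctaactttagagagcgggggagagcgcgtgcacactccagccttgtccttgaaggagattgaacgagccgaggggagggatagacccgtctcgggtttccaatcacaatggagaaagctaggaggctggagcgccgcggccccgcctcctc
Slc16a1: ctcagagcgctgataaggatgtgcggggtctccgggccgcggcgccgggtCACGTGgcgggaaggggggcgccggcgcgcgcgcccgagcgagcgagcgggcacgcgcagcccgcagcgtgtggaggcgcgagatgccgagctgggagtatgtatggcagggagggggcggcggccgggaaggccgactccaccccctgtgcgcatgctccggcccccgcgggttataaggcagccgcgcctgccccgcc
The Ldha window shown held 5 matches, of which 4 lay in 2 copies of CACGTG, the Slc16a1 window held 2 in 1 copy of CACGTG, and the Ldhb window held none. A second RefSeq start of Ldha, with its window at chr7:46846832-46847081, held none either. Of 32851 mouse promoter windows of the same length, 16.57% held ACGTG on either strand and 6.02% held CACGTG. The GC content was 67.2% for the Ldha window shown, 76.4% for Slc16a1 and 56.4% for Ldhb. These matches describe the letters only. RefSeq windows were matched for 8 members, with 12 windows in all.

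The glucose transporter of capillaries and astrocytes was the member whose values spread most. Slc2a1 (ENSMUSG00000028645.11, chr4:119108711-119137983, plus strand of GRCm38) was at log2 values of 11.62, 11.72 and 11.71 in EL, at 12.19, 11.70 and 11.81 in ELKO, at 11.97, 11.74, 12.19, 11.92 and 11.90 in 5EL, and at 11.99, 11.54, 11.77 and 11.86 in 5ELKO. The 3 EL libraries lay close together and below all 5 libraries of 5EL, while ELKO and 5ELKO overlapped with every other group. Its range over the 15 libraries was 0.66 in log2, or 1.58-fold, and 88.8% of genes within 0.5 log2 of its level had a smaller spread within groups. Slc2a3 (ENSMUSG00000003153.10, chr6:122727809-122801640, minus strand) was at 11.04 to 11.41 in EL, 11.07 to 11.32 in ELKO, 11.21 to 11.35 in 5EL and 11.18 to 11.39 in 5ELKO. These 4 ranges overlapped, and EL replicate 3 and ELKO replicate 3 held the lowest values.

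The enzymes of glycolysis differed in how steady they were. Hk1 (ENSMUSG00000037012.18, chr10:62268855-62379908, minus strand), the hexokinase of neurons and of most brain cells, was at 12.79, 12.62 and 12.22 in EL, at 12.74, 12.70 and 12.50 in ELKO, at 12.84, 12.70, 12.60, 12.69 and 12.66 in 5EL and at 12.70, 12.82, 12.73 and 12.67 in 5ELKO. EL replicate 3 lay below all other libraries. Hk2 (ENSMUSG00000000628.10, chr6:82725025-82774454, minus strand), an inducible hexokinase, stayed between 6.12 and 6.33 over all 15 libraries, and only 4.92% of genes near its level had a smaller spread within groups. Pkm (ENSMUSG00000032294.17, chr9:59656368-59679375, plus strand) stayed between 14.86 and 14.96, the narrowest range of the 10 members, with 7.32% of genes near its level steadier within groups. Pfkfb3 (ENSMUSG00000026773.19, chr2:11471433-11554077, minus strand) was at 8.83 to 9.03 in EL, 8.87 to 9.17 in ELKO, 8.82 to 9.21 in 5EL and at a median of 9.09 in 5ELKO, with overlap between all groups.

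The paired subunits of lactate dehydrogenase were high and low in different libraries. Ldha (ENSMUSG00000063229.15, chr7:46841475-46855627, plus strand) was at 11.76, 11.52 and 11.51 in EL, at 11.58, 11.76 and 11.72 in ELKO, at 11.74, 11.47, 11.90, 11.56 and 11.50 in 5EL and at 11.54, 11.76, 11.59 and 11.74 in 5ELKO. Its highest and lowest values were both in 5EL. Ldhb (ENSMUSG00000030246.11, chr6:142490249-142507957, minus strand) was at 13.28, 13.60 and 13.92 in EL, at 13.34, 13.38 and 13.65 in ELKO, at 13.33, 13.33, 13.44, 13.48 and 13.44 in 5EL and at 13.40, 13.30, 13.29 and 13.36 in 5ELKO. The EL libraries spanned the whole range of Ldhb, with its lowest value in replicate 1 and its highest in replicate 3, and the SD was 0.32 in EL, 0.17 in ELKO, 0.07 in 5EL and 0.05 in 5ELKO. These spreads were not compared by a test. After subtraction of group means, the correlation of Ldha with Ldhb over the 15 libraries was -0.26.

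Of the monocarboxylate transporters, Slc16a1 had the wider range over the 15 libraries, 0.59 in log2 against 0.39 for Slc16a7. Their pooled SDs within groups were close, at 0.139 and 0.135. Slc16a1 (ENSMUSG00000032902.1, chr3:104638668-104658462, plus strand) was at 9.72, 9.98 and 10.12 in EL, at 9.58, 9.78 and 9.88 in ELKO, at 9.53, 9.84, 9.58, 9.76 and 9.77 in 5EL and at 9.71, 9.62, 9.73 and 9.71 in 5ELKO. EL replicates 2 and 3 were higher than every other library, and EL replicate 1 lay within the range of 5EL. Slc16a7 (ENSMUSG00000020102.15, chr10:125219270-125389465, minus strand) was at 7.20 to 7.39 in EL, 7.08 to 7.43 in ELKO, 7.18 to 7.43 in 5EL and 7.18 to 7.47 in 5ELKO, with overlap between all groups.

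**Figure D1:**
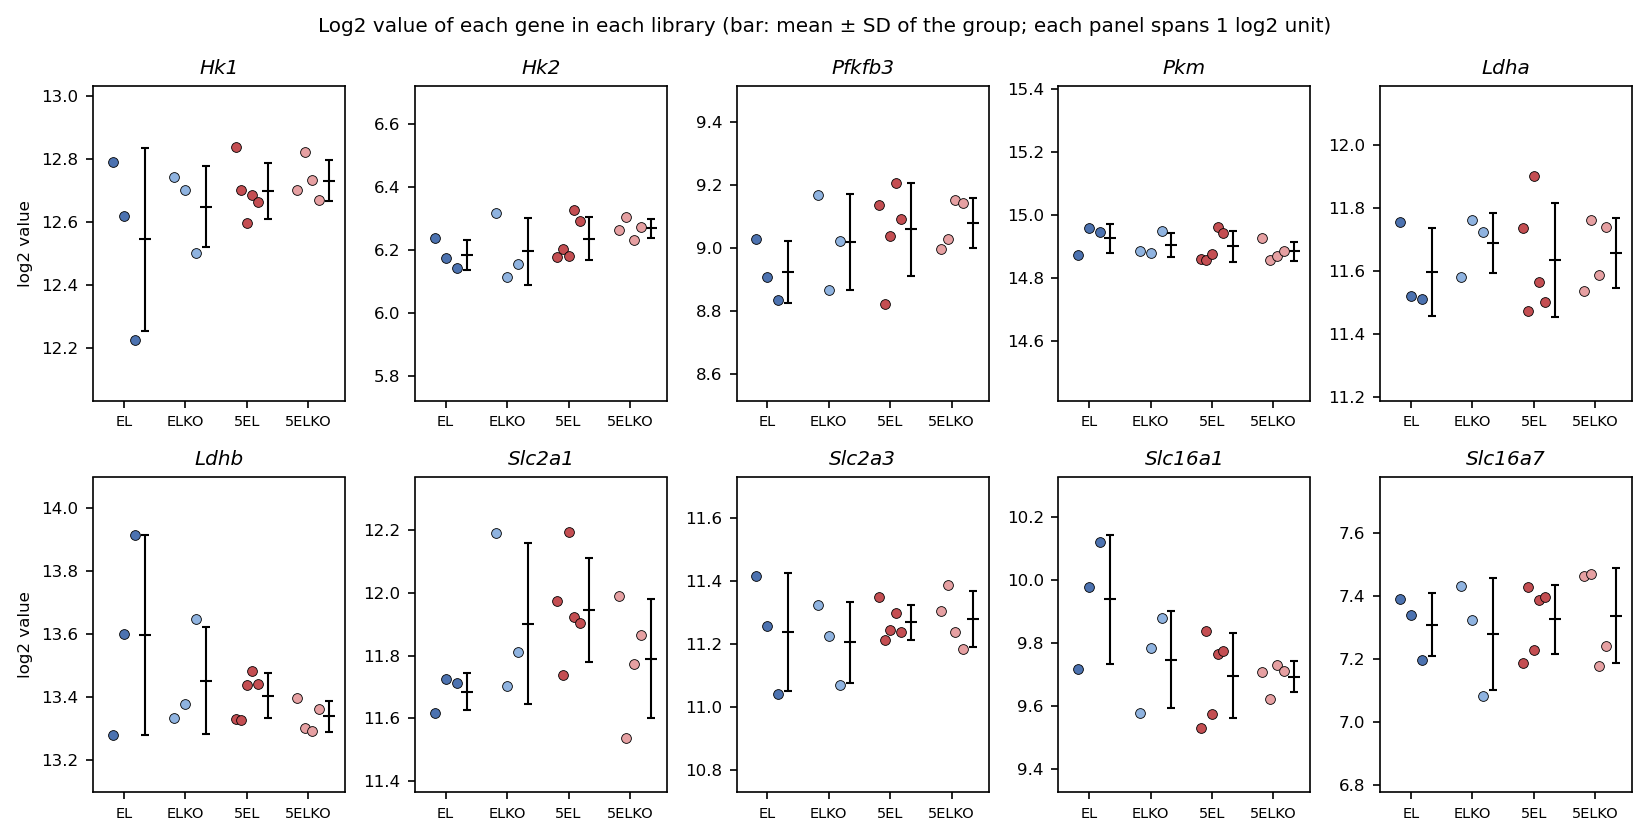
Log2 value (y axis) of each of the 10 genes in each of the 15 libraries, by group (x axis); points are libraries, bars are the group mean ± SD, and each panel spans 1 log2 unit. Hk2 and Pkm stayed within 0.21 and 0.11 log2 over all libraries, while Hk1, Ldhb, Slc2a1 and Slc16a1 each spanned 0.59 to 0.66, with EL replicate 3 lowest for Hk1 and highest for Ldhb and Slc16a1.

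Levels were compared between genes as log2 values per kb of annotated exon, which takes the deposited values as log2 of a quantity proportional to reads. On that scale Ldhb was highest at 12.79, followed by Pkm at 12.58, Slc2a1 at 10.03, Ldha at 9.92, Hk1 at 9.57, Slc2a3 at 8.40, Slc16a1 at 7.61, Pfkfb3 at 6.11, Slc16a7 at 3.75 and Hk2 at 3.65. Most neighbours kept this order in all 15 libraries. The exceptions were Slc2a1 above Ldha, with a mean gap of 0.12 ± 0.22 (SD) and that order in 12 of 15 libraries, and Slc16a7 above Hk2, with a mean gap of 0.10 ± 0.10 (SD) and that order in 12 of 15. These gaps were not tested. With the length of the longest transcript in place of the merged exons, 5 of the 10 members kept their rank, and Pkm at 13.62 stood above Ldhb at 13.05. Pkm shared 767 bases, 15.3% of its exons, with Gm49759 on the same strand, so its level may hold reads of both. Counting did not use strand, and Hk1, Slc2a1 and Slc16a7 shared 157, 105 and 179 bases with Hk1os, Gm12868 and Gm47862 on the opposite strand.

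**Figure D2:**
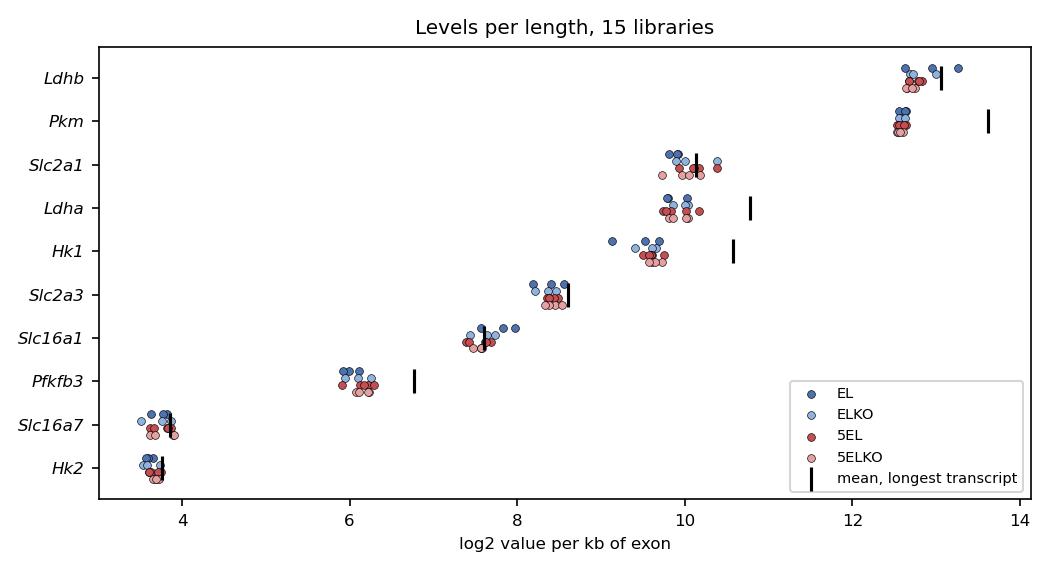
Log2 value per kb of merged exon (x axis) of each gene in the 15 libraries, ordered by the mean; points are libraries by group, and the black tick is the mean with the longest transcript as length. The members spanned 3.65 for Hk2 to 12.79 for Ldhb, and the points of Slc2a1 and Ldha, and those of Slc16a7 and Hk2, overlapped.

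Loss of Lilrb4a in mice with amyloid was examined first. Between 5ELKO and 5EL, 0 of the 10 members reached a nominal p under 0.05, that is before adjustment, in the limma fit, where 2.49% of the 15743 genes tested did. After adjustment over all genes, 0 members passed, against 3 genes, or 0.0191%, of those tested. The median difference of the members was 0.01 in log2, against 0.00 over all genes tested. The largest was that of Slc2a1, with 5ELKO at 11.79 ± 0.19 (SD, n = 4) against 11.95 ± 0.16 (SD, n = 5) in 5EL. The log2 difference of Slc2a1 was -0.15 (SE 0.095, 95% CI -0.36 to 0.05, limma adjusted p = 0.999), and the groups overlapped. It was -0.21 without 5EL replicate 2 and -0.22 without 5ELKO replicate 1, and passed the nominal threshold in both of these fits. It was -0.07 without 5ELKO replicate 2 and -0.09 without 5EL replicate 3. Ldhb differed by -0.07 (95% CI -0.17 to 0.04). For the other 8 members the difference was at most 0.03 in size, and with 1 library left out it ran from -0.05 for Slc16a1 to 0.09 for Ldha. The intervals of Hk1 (-0.08 to 0.15), Hk2 (-0.08 to 0.15), Pkm (-0.12 to 0.09) and Slc2a3 (-0.10 to 0.12) reached at most 0.15 in size, while those of Ldha (-0.16 to 0.21), Pfkfb3 (-0.14 to 0.18), Slc16a1 (-0.14 to 0.14) and Slc16a7 (-0.16 to 0.19) were similar or wider.

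Without 5xFAD, the deletion was read from ELKO against EL, 3 libraries against 3. Again 0 of the 10 members reached a nominal p under 0.05, where 2.35% of 15804 genes did, and 0 members or other genes reached an adjusted p under 0.05. Slc16a1 was at 9.75 ± 0.16 (SD, n = 3) in ELKO against 9.94 ± 0.21 (SD, n = 3) in EL, which gave -0.19 in log2 (SE 0.104, 95% CI -0.41 to 0.03, limma adjusted p = 0.998). Slc16a1 was lower in ELKO than in EL in each of the 3 same-numbered pairs. With the replicate number as a block, in a fit of the EL and ELKO libraries only, its difference kept its size and the SE was 0.048. The nominal threshold was passed there (limma adjusted p = 0.690), as it was by 7.06% of all genes. In a fit of the same libraries without the block, 0 members and 1.1% of genes passed. The SE with the block thus differs from that above in both the block and the libraries fitted. In the fit of all 15 libraries, Slc2a1 differed by 0.22 (95% CI -0.06 to 0.49). Without the library labelled ELKO replicate 1, the one with high mouse Apoe, it differed by 0.07. Without ELKO replicate 2, one of the libraries high in choroid plexus genes, Slc2a1 differed by 0.32 and passed the nominal threshold.

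The EL libraries set several of these values. Without EL replicate 1, the ELKO against EL difference was 0.23 for Hk1, -0.30 for Ldhb and -0.30 for Slc16a1, and all 3 passed the nominal threshold, as 11.6% of genes did in that fit. With all libraries these differences were 0.10 for Hk1, -0.15 for Ldhb and -0.19 for Slc16a1. Without EL replicate 3, that of Hk1 was -0.06, that of Ldhb 0.01 and that of Slc16a1 -0.10. Without the library labelled ELKO replicate 1, Slc16a1 gave -0.11 and Hk1 0.06. Slc16a1 gave -0.26 and passed without ELKO replicate 3, in a fit in which 8.72% of genes did.

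The amyloid transgenes were read in mice with intact Lilrb4a from 5EL against EL. Here 2 of the 10 members reached a nominal p under 0.05, where 7.7% of 15804 genes did, and neither reached an adjusted p under 0.05, nor did any other gene. Slc2a1 was higher in 5EL, at 11.95 ± 0.16 (SD, n = 5) against 11.68 ± 0.06 (SD, n = 3), a log2 difference of 0.26 or 1.20-fold (SE 0.117, 95% CI 0.01 to 0.51, limma adjusted p = 0.630). Its groups did not overlap, which held for 3.26% of all genes tested. Slc2a1 passed the nominal threshold in 9 of the 15 fits that left out 1 library, with differences from 0.20 to 0.31. It missed the threshold without 5EL replicates 1, 3 or 4, taken 1 at a time, and without any of the 3 EL libraries.

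Slc16a1 was lower in 5EL, at 9.70 ± 0.14 (SD, n = 5) against 9.94 ± 0.21 (SD, n = 3), a log2 difference of -0.24 or 0.846-fold (SE 0.093, 95% CI -0.44 to -0.04, limma adjusted p = 0.630), and the groups overlapped through EL replicate 1. The difference of Slc16a1 was -0.15 without EL replicate 3, -0.20 without 5EL replicate 1 and -0.22 without EL replicate 2, and missed the nominal threshold in these 3 fits. It was -0.35 without EL replicate 1. The list mean of endothelial markers was 9.79 to 9.99 in EL and 9.73 to 9.94 in 5EL, and that of oligodendrocyte markers 13.43 to 13.88 and 13.48 to 13.78, with 0 genes of either list below 10 on the linear scale. Their part in the difference was not tested. Without both libraries high in choroid plexus genes, Slc2a1 differed by 0.25 and Slc16a1 by -0.20, and both missed the nominal threshold.

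The other members did not reach the threshold between 5EL and EL. Ldhb was at 13.41 ± 0.07 (SD, n = 5) in 5EL against 13.60 ± 0.32 (SD, n = 3) in EL, a difference of -0.19 (95% CI -0.42 to 0.03). It was -0.35 without EL replicate 1 (limma adjusted p = 0.0797, the lowest over all its alternatives, whose highest was 0.9998) and -0.04 without EL replicate 3. Hk1 differed by 0.15 (95% CI -0.06 to 0.36), by 0.27 without EL replicate 1, where it passed the nominal threshold, as 20.2% of genes did, against 2.24% without EL replicate 3, and by -0.01 without EL replicate 3. Pfkfb3 differed by 0.14, and by 0.19 without 5EL replicate 2, where it passed, and by 0.09 without EL replicate 3. Hk2, Pkm, Ldha, Slc2a3 and Slc16a7 differed by -0.03 to 0.05.

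In mice without Lilrb4a, 5ELKO against ELKO gave 0 members at a nominal p under 0.05, where 2.37% of 15804 genes passed, and 0 genes at an adjusted p under 0.05. The largest differences were -0.11 for Ldhb (95% CI -0.35 to 0.12) and -0.11 for Slc2a1 (95% CI -0.37 to 0.15). Ldhb gave -0.02 without ELKO replicate 3 and -0.17 without the library labelled ELKO replicate 1. Slc2a1 gave 0.03 without the library labelled ELKO replicate 1, -0.03 without 5ELKO replicate 2 and -0.21 without ELKO replicate 2. Slc16a1 differed by -0.05 (95% CI -0.26 to 0.15), by -0.14 without the library labelled ELKO replicate 1 and by 0.01 without ELKO replicate 3.

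The interaction, the effect of the deletion with 5xFAD minus its effect without, asked whether the deletion acted differently in the 2 backgrounds. Of the 10 members, 1 reached a nominal p under 0.05, where 2.73% of 15804 genes did, and 0 reached an adjusted p under 0.05. This was Slc2a1, whose deletion effect was 0.22 without 5xFAD and -0.15 with it, a difference of -0.37 (SE 0.169, 95% CI -0.73 to -0.01, limma adjusted p = 0.9996). Slc2a1 passed the nominal threshold in 5 of the 15 fits that left out 1 library, with values from -0.47 to -0.23. It missed the threshold without 5EL replicates 1, 3, 4 or 5, 5ELKO replicates 2 or 3, any EL library, or the library labelled ELKO replicate 1, again taken 1 at a time. The value nearest to 0 was that without this last library. For Slc16a1 the interaction was 0.19 (95% CI -0.10 to 0.47), and 0.30 without EL replicate 1, where it passed the nominal threshold. It was 0.10 without EL replicate 3 and also 0.10 without the library labelled ELKO replicate 1. The comparisons share groups, so the values of one gene in them are not independent.

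**Figure D3:**
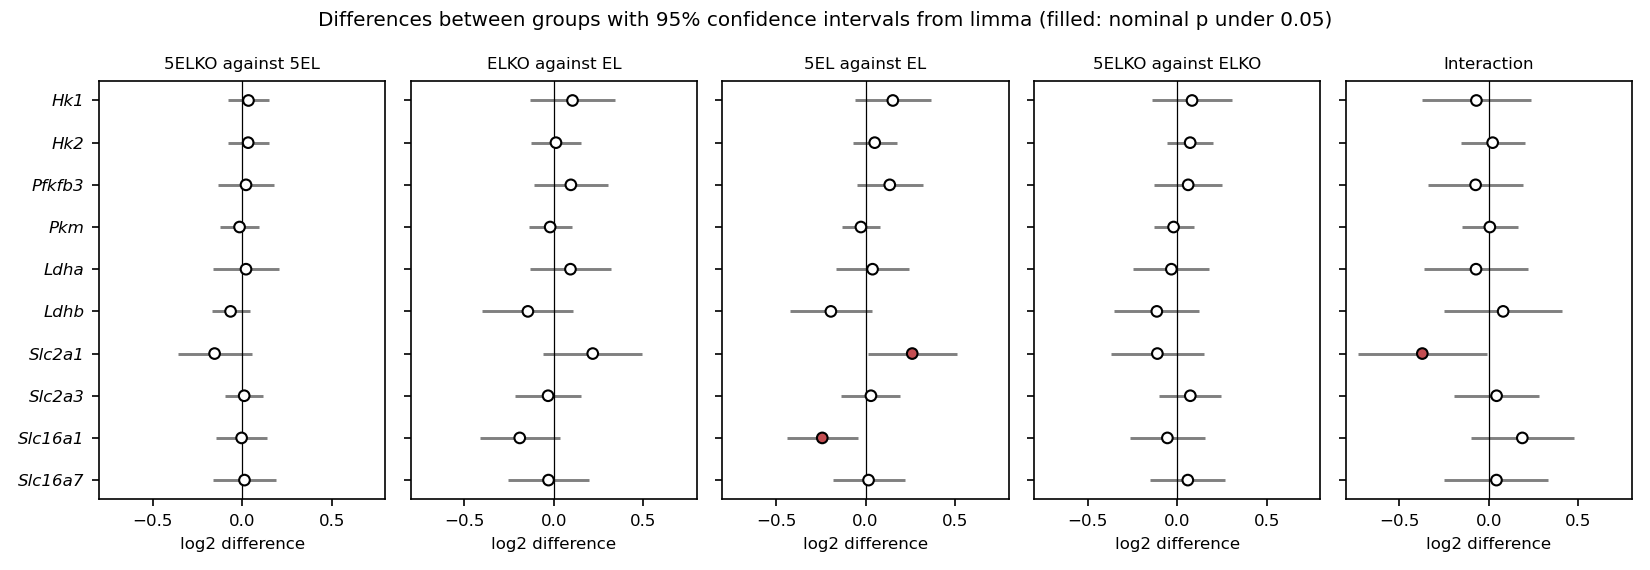
Log2 difference (x axis) of each gene in the 4 comparisons between groups and in the interaction, with 95% confidence intervals from limma; filled points have a nominal p under 0.05. Slc2a1 and Slc16a1 between 5EL and EL, at 0.26 and -0.24, and Slc2a1 in the interaction, at -0.37, were the 3 filled points, and no member passed after adjustment over all genes.

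Partners were then compared within a library, where any scaling of the library cancels, by two-sided exact permutation tests of 4 log2 ratios in 4 comparisons. None of the 16 reached p under 0.05 before adjustment, and the smallest adjusted p was 0.800. Slc16a1 minus Slc16a7 was 2.37 ± 0.03 (SD, n = 5) in 5EL against 2.63 ± 0.30 (SD, n = 3) in EL, a difference of -0.26 (exact p = 0.107), and without EL replicate 1 it was -0.41 (exact p = 0.0476). Without EL replicate 3 this ratio differed by -0.11 (exact p = 0.286). Slc2a1 minus Slc2a3 was 0.68 ± 0.16 (SD, n = 5) in 5EL against 0.45 ± 0.23 (SD, n = 3) in EL, a difference of 0.23 (exact p = 0.179), and without EL replicate 3 it was 0.34 (exact p = 0.0476). Without EL replicate 1 it was 0.11 (exact p = 0.476). With 5 libraries against 2, the exact p of 0.0476 is the smallest this test allows. For Ldha minus Ldhb, EL was at -2.003 ± 0.44 (SD, n = 3), ELKO at -1.77 ± 0.15 (SD, n = 3), 5EL at -1.77 ± 0.19 (SD, n = 5) and 5ELKO at -1.68 ± 0.14 (SD, n = 4), with exact p from 0.339 to 0.5. Hk1 minus Hk2 differed between groups by at most 0.10. With 3 libraries against 3, the smallest p this test allows is 0.1.

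Within groups, some members moved together from library to library. These correlations are over 15 libraries after subtraction of group means, describe libraries that share processing, and carry no test. Hk1 and Slc2a3 ran together (r = 0.92), and both ran against Ldhb (r = -0.93 and -0.83) and Slc16a1 (r = -0.72 and -0.82), while Ldhb and Slc16a1 ran together (r = 0.73). Without EL replicate 3 these values were 0.88 for Hk1 with Slc2a3, -0.88 for Hk1 with Ldhb and 0.66 for Ldhb with Slc16a1. Slc2a1 had r = 0.03 with Slc2a3, -0.16 with Hk1, 0.11 with Ldhb and -0.34 with Slc16a1. For Ldha these were 0.24, 0.21, -0.26 and -0.58, and for Pkm -0.43, -0.51, 0.69 and 0.58.

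The same libraries differed in the balance between genes with short and with long annotated transcripts. The mean deviation of 3359 genes with transcripts under 2000 bases minus that of 2159 genes over 6000 bases was 0.26 in EL replicate 3, 0.22 in ELKO replicate 3 and 0.15 in 5EL replicate 3, against -0.14 to 0.02 in the other 12 libraries. After subtraction of group means this index correlated with Hk1 at r = -0.85, with Slc2a3 at -0.82, with Slc16a7 at -0.72, with Hk2 at -0.57, with Ldhb at 0.77 and with Slc16a1 at 0.50, and with the other 4 members at -0.27 to 0.28, among them Slc2a1 at 0.08. Without EL replicate 3 and ELKO replicate 3 it was 0.22 for Slc16a1, 0.55 for Ldhb and -0.73 for Hk1. Its part in the differences between groups was not tested. By group, EL had an index of 0.07 ± 0.17 (SD, n = 3), ELKO of 0.02 ± 0.18 (SD, n = 3), 5EL of -0.01 ± 0.10 (SD, n = 5) and 5ELKO of -0.05 ± 0.05 (SD, n = 4).

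**Figure D4:**
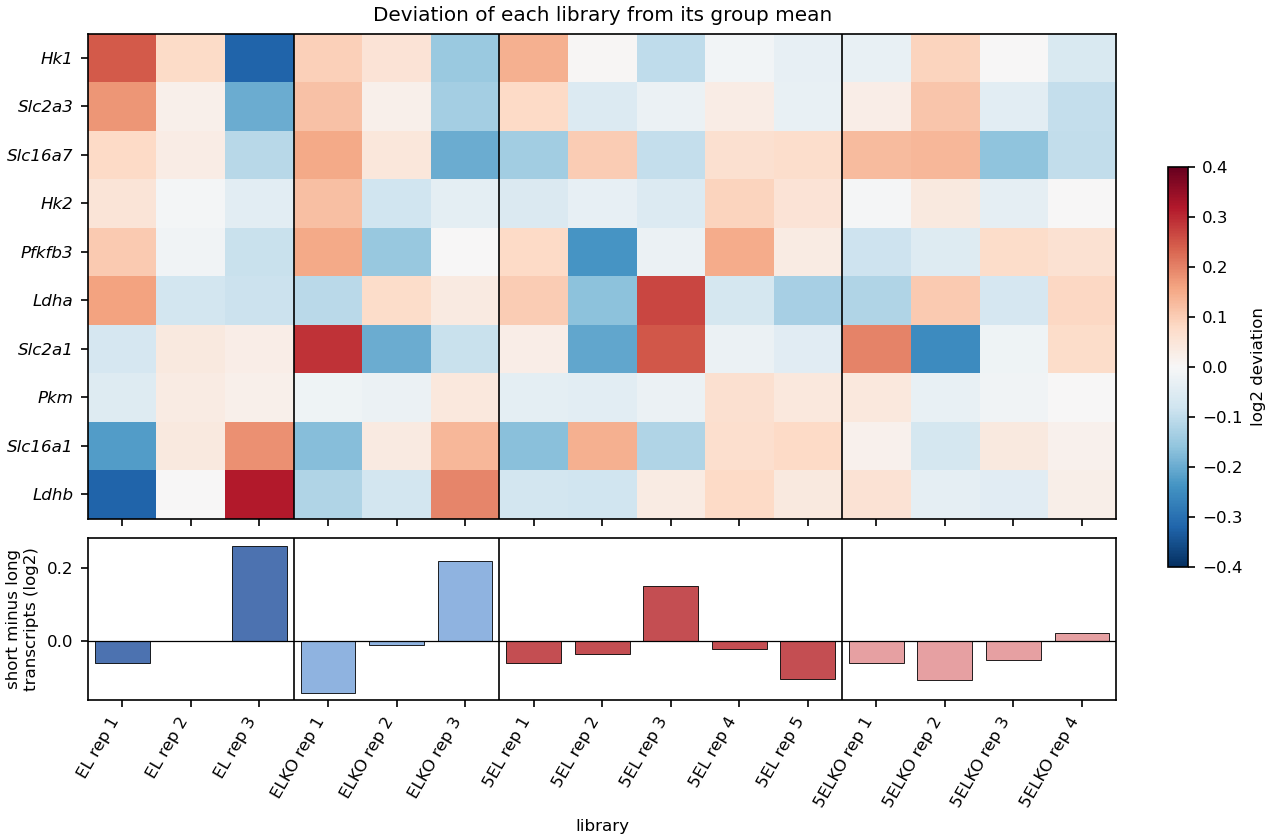
Top, deviation of each library from its group mean (color, log2) for the 10 genes (rows) in the 15 libraries (columns); bottom, the index of short minus long transcripts (log2) in the same libraries. EL replicate 3 and ELKO replicate 3, with indices of 0.26 and 0.22, were low in Hk1, Slc2a3 and Slc16a7 and high in Ldhb and Slc16a1, and Slc2a1 followed another order.

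Markers of cell types were set against 8 pairs of member and list over the 15 libraries, with permutation tests adjusted over the 8. The permutations shuffled all 15 libraries without regard to group or replicate number. Their p-values thus treat libraries of different groups as interchangeable, which the design does not ensure. Slc16a1 followed the endothelial list (Pearson r = 0.69, permutation p = 0.0043, adjusted p = 0.0172), and the rank correlation was 0.66 (permutation p = 0.00957, adjusted p = 0.0766). Without the 2 libraries farthest from the median of the list, r for Slc16a1 was 0.81, and it was 0.53 within the 9 libraries with 5xFAD and 0.89 within the other 6. Ldhb followed the neuron list at r = 0.71 (permutation p = 0.00157, adjusted p = 0.0126), with a rank correlation of 0.53 (permutation p = 0.0447, adjusted p = 0.179), r = 0.55 without the 2 farthest libraries, and 0.32 and 0.87 within the libraries with and without 5xFAD. For Ldhb and the astrocyte list r was -0.67 (permutation p = 0.00925, adjusted p = 0.0247) with a rank correlation of -0.15 (permutation p = 0.585). Without EL replicate 3 and ELKO replicate 3 r was 0.04, so this relation rests on those libraries. Gfap had the widest range of the astrocyte list, from 9.66 in EL replicate 3 to 12.13 in 5ELKO replicate 1. Its part in the list mean was not tested. Slc2a1 had r = -0.36 with the endothelial list (permutation p = 0.190), Slc2a3 and Slc16a7 had -0.19 and 0.05 with the neuron list, and Ldha had -0.24 and -0.12 with the neuron and astrocyte lists. Other lists gave Ldhb values of like size, with no test. After subtraction of group means, Ldhb had r = 0.58 with the neuron list, 0.79 with the erythroid, 0.72 with the oligodendrocyte, 0.67 with the endothelial and -0.70 with the hepatocyte list. On the same measure Slc16a1 had r = 0.83 with the oligodendrocyte list and 0.79 with the endothelial list, and Slc2a3 had r = -0.90 with the oligodendrocyte list.

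For each member the tested genes with the most similar pattern over the 15 libraries were found by Pearson r after subtraction of group means. Ldhb was closest to Slc25a5 (r = 0.99), a mitochondrial ADP/ATP carrier, and to Mpc1 (r = 0.98), a subunit of the mitochondrial pyruvate carrier, and then to Ppp2r3c. Slc2a1 was closest to Gpt2 (r = 0.94), a mitochondrial alanine aminotransferase, followed by Susd6 and Bcl2l1. Slc16a1 was closest to Slain1 (r = 0.93), Gjb1 (r = 0.92), a gap junction protein of oligodendrocytes, and Cdc42ep2. Hk1 was closest to Ppp1r26 (r = 0.98), Nisch and Grin2d, and Slc2a3 to Aff3 (r = 0.97), Casc3 and Kcna3. For Ldha the closest were Stmn1 (r = 0.93), Trac and Sh3bp1, for Slc16a7 Pip5k1a (r = 0.94), Prkcb and Mtmr9, for Pkm Acbd5 (r = 0.92), Hsd11b1 and Vamp1, for Hk2 Alg11 (r = 0.92), Ubxn2b and Kbtbd7, and for Pfkfb3 Zbtb2 (r = 0.85), Fbxl16 and Nacc1. These are the highest of many correlations and were not tested.

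The rest of the pathway was read from 5 further lists of 73 genes, of which 66 passed the filter on low values, and no gene of them reached an adjusted p under 0.05 in any comparison. The genes named here passed the nominal threshold of 0.05, unless a sentence says otherwise, and their adjusted p was at least 0.630. Over all genes tested, 2.49% passed that threshold between 5ELKO and 5EL, 2.35% between ELKO and EL and 7.7% between 5EL and EL. The share was 2.37% between 5ELKO and ELKO and 2.73% in the interaction. Of the 20 glycolytic enzymes tested, 0 reached a nominal p under 0.05 in any of the 4 comparisons between groups. Of the 20 flux regulators and genes of pyruvate entry, Hif1a among them, 0 passed between 5ELKO and 5EL and 2 were lower in 5EL than in EL, namely Pdp1, a pyruvate dehydrogenase phosphatase (-0.31), and Mpc2, the other subunit of the pyruvate carrier (-0.27). Without EL replicate 3 these were -0.14 for Pdp1 and -0.11 for Mpc2, and both missed the threshold. Pdp1 also missed it without 5EL replicates 2 or 3 or EL replicate 2, and Mpc2 without 5EL replicates 1, 2 or 5. Of the 9 other glucose transporters tested, Slc2a6, a transporter of intracellular membranes, was lower in 5ELKO than in 5EL, at 8.36 to 8.55 in the 4 libraries of the first group against 8.58 to 8.66 in the 5 of the second. The groups of Slc2a6 did not overlap (-0.15), which held for 1.06% of genes tested, and 5ELKO against ELKO gave -0.17. Without 5ELKO replicate 4 these were -0.10 and -0.12 for Slc2a6, and both missed the threshold, as did the latter without ELKO replicate 2 or 3. Slc2a9, a urate transporter, was at 3.56 in 5EL and 3.50 in EL and passed in 2 of 15 fits that left out 1 library.

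Of the 4 other genes of lactate transport that were tested, Emb and Slc16a3 passed the nominal threshold. Emb encodes embigin, which brings MCT2 to the cell surface, and was at 9.04, 9.17 and 8.89 in EL, at 9.25, 9.78 and 9.11 in ELKO, at 9.50, 9.44, 9.22, 9.29 and 9.40 in 5EL and at 9.21, 9.19, 9.23 and 9.11 in 5ELKO. The 5EL libraries lay above all EL libraries, and 3.26% of all genes tested had no overlap between these groups. The log2 difference of Emb was 0.33 between 5EL and EL, 0.35 between ELKO and EL and -0.18 between 5ELKO and 5EL, and the interaction was -0.53. With all 15 libraries in one fit, as used for the other comparisons of Emb, the difference of -0.18 missed the nominal threshold. Without EL replicate 3 the first of these was 0.26 and the second 0.28 for Emb, and both missed the threshold. The highest values of Emb in 5EL and ELKO came from the libraries high in choroid plexus genes, and without them these values were 0.30, 0.15, -0.15 and -0.30, of which that between ELKO and EL missed the threshold. Slc16a3, the MCT4 of lactate export, was higher in 5ELKO than in 5EL by 0.18, with overlap, and passed in 3 of 9 fits that left out 1 library, namely 5EL replicates 2 or 3 or 5ELKO replicate 1. Bsg, which encodes the partner of MCT1, differed by 0.05 between 5ELKO and 5EL and did not pass.

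Of the 13 genes of glycogen metabolism, Ppp1r3c, which brings protein phosphatase to glycogen, was at 9.41, 9.70 and 9.78 in EL, at 9.43, 9.39 and 9.67 in ELKO, at 9.44, 9.38, 9.31, 9.41 and 9.34 in 5EL and at 9.63, 9.45, 9.57 and 9.67 in 5ELKO. All 4 libraries of 5ELKO lay above those of 5EL, and 1.06% of all genes tested had no overlap between these groups. The difference of Ppp1r3c was 0.21 between 5ELKO and 5EL (SE 0.052, limma adjusted p = 0.999) and passed the nominal threshold in 9 of 9 fits that left out 1 library. It was -0.25 between 5EL and EL, and -0.18 without EL replicate 3, where it missed the threshold, and the interaction was 0.34. Pygl, a glycogen phosphorylase, was lower in 5EL than in EL (-0.18) and gave -0.12 without EL replicate 3, where it missed the threshold.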

How the data were processed

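Bulk RNA-seq was measured in 15 thalamus libraries, grouped by the genotype in their labels. Per the labels and the study's methods, the authors checked reads with FastQC 0.11.9, trimmed them (Trimmomatic 0.39), mapped them onto GRCm38 (HISAT2 2.2.1), sorted them with SAMtools 1.16.1, counted read pairs over exons by gene name without strand with featureCounts 2.0.3 and used DESeq2 1.38.3. The deposited values are on a log2 scale, from -2.27 to 18.98, with no transform named. They give no counts, so no counting error could be given. The study lists total reads and RNA integrity for libraries of the 5xFAD groups, which were not used here. For EL and ELKO neither is given in the sources used here. The annotation release is not given in the sources used here. The study gives each 5EL and 5ELKO library an identifier of its own, and lists a further 5ELKO library that is not among those labelled here. For EL and ELKO the sources used here do not say whether replicates were separate mice, so p-values measure the spread between these libraries. All 105 pairs of libraries were compared and 0 were identical.

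limma 3.58.1 in R 4.3.3 (lmFit, eBayes with a trend) was fitted to genes that reached a log2 value of 3.32 in at least 4 of 9 or 3 of 15 libraries, the size of the smallest group, with Benjamini-Hochberg adjustment over all genes tested. All 10 members passed in all 15 libraries. 5ELKO against 5EL used 9 libraries and the other comparisons all 15. With the replicate block, a comparison between groups used only the libraries of the groups compared. The fits and the exact permutation test were tested on simulated data, with differences larger than those of the members here. The permutation test of the marker correlations was not tested in this way. Single ratios were compared by exact permutation (numpy 2.4.6), and the ranks for the rank correlations came from scipy 1.17.1. Gene positions and lengths come from GENCODE M21 and promoters from RefSeq GRCm38.p6. EL and ELKO libraries with the same number deviated alike from their group means (r = 0.453, 0.325 and 0.742 over all genes tested). Over the 10 members r was 0.46, 0.01 and 0.84. Deviations within a group of 3 depend on each other, so these values do not settle a pairing, which was not tested. The labels do not say what such libraries share.

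The members and gene lists were chosen with earlier results of these data known. Named are the 10 members, the genes of the pathway lists at a nominal p under 0.05 (up to 4 per list and comparison), Bsg and Hif1a, added after their values were seen, and the 3 most similar genes of each member. A gene of the pathway lists that this rule covers is not reported here. The alternatives were the filter, the variance prior, recentring, the replicate block, other sets of libraries in the fit, the libraries high in choroid plexus genes and each library left out. The transcript length index and the correlations without EL replicate 3 were added after the data were seen.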

Additional observations from a re-analysis of the deposited data

Results flagged for a closer look

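The effect of the deletion on Slc2a1 was compared between mice with and without 5xFAD by a test of the difference itself, with an interaction of -0.37 in log2 (SE 0.169), which passed a nominal p of 0.05 in the limma fit but not adjustment over all genes tested (limma adjusted p = 0.9996). It was 0.22 between ELKO and EL and -0.15 between 5ELKO and 5EL. The value was -0.23 without the library labelled ELKO replicate 1, where it missed the nominal threshold. Of the 28 groups of 4 or more libraries, counting each member and each ratio, in which the most extreme library was compared with its neighbours by Dixon's test, 0 held a library that stood apart. EL and ELKO, with 3 libraries each, were left out of this test.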

How the results depend on the processing

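Across 50 member differences and the 1030 values of their alternatives, 0 reached an adjusted p under 0.05, with a lowest of 0.0797, and 0 called values changed sign. The number of members at a nominal p under 0.05 was 0 between 5ELKO and 5EL, 1 with the replicate block, and 0 to 1 when 1 library was left out. That member was Slc2a1, at -0.17 with the block. Deviations of same-numbered 5EL and 5ELKO libraries had r = -0.244 to 0.143 over all genes tested and -0.454 to 0.388 over the members. What such libraries share is not known. Between ELKO and EL the number of members was 0, then 1 with the replicate block, 1 without the libraries high in choroid plexus genes, and 0 to 3 with 1 library left out. Between 5EL and EL it was 2, then 0 without the choroid plexus libraries and 0 to 3 with 1 library left out. For the interaction it was 1, then 0 with no filter on low values, 0 after recentring each library (Slc2a1 at -0.35) and 0 to 1 with 1 library left out. Between 5ELKO and ELKO it stayed at 0 under every alternative run, and the replicate block changed no other call of a member. For the pair ratios, 0 passed, and 0 to 1 with 1 library left out. The order of levels per length kept 5 of 10 ranks with the longest transcript. The cause of these changes was not tested. Groups of 3 to 5 libraries limit what could be detected, and the deposited values carry no counting error.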
